A study of Mus musculus with 4 samples.

Results

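The Ikaros family comprises 5 zinc finger genes, Ikzf1 to Ikzf5, and 90 of the 91266 accessible regions of the series belonged to it. A region was given to the protein-coding gene whose span was nearest, and where several were equally near to the one with the closer end, so that the up and down lists played no part in giving a region to a gene. The regions come from ATAC-seq, which maps open chromatin by where a transposase can cut DNA and attach adapters, on natural killer (NK) cells of wild-type (WT) C57BL/6 mice. Splenic NK cells were cultured for 72 h in HD IL-15 or in LD IL-15, a high and a low dose of the cytokine interleukin-15. Each dose had 2 biological replicates of about 75000 cells, 4 samples in all, and the concentrations are not given in the sources used here. The study asked which accessible regions differ between the doses. The authors' deposited lists name 3845 regions as up and 1275 as down, without stating which dose was the reference, so neither list is tied to a dose here. The tables hold positions and no value per sample. No replicate error, fold change or p-value can therefore be given, and sequencing depth is unknown.

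Ikaros family proteins bind DNA through zinc fingers near the amino terminus and pair with one another through zinc fingers at the carboxyl terminus. They recruit chromatin remodelling and histone deacetylase complexes, prominently NuRD, and can repress or activate lymphoid genes. Ikzf1 encodes Ikaros, the founding member, which is required for lymphocyte development. Ikzf2 encodes Helios, a factor of regulatory T cells and of early lymphoid and innate lymphoid cells. Ikzf3 encodes Aiolos, which acts in maturing B cells and in the terminal maturation of NK cells. Ikzf4 encodes Eos, a partner of Foxp3 in regulatory T cells, and Ikzf5 encodes Pegasus, the most divergent and a broadly expressed member.

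The start sites of 2 members were matched in RefSeq's promoter windows (GRCm38.p6, 250 bases before to 50 after a start): Ikzf1 with 2 starts and Ikzf5 with 1. They are shown because each of the 3 windows lay wholly inside an accessible region that was in neither list. All are written 5′ to 3′ on the gene's strand, and capitals mark the letters of a searched motif.

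Ikzf1, first start, chr11:11685675-11685974, plus strand: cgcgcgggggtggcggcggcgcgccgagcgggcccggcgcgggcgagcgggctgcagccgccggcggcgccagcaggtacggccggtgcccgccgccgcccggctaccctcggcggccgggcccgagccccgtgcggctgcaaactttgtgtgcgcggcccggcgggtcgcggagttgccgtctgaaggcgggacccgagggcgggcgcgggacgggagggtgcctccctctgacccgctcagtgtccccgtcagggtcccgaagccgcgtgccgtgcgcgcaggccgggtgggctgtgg
Ikzf1, second start, chr11:11689927-11690226, plus strand: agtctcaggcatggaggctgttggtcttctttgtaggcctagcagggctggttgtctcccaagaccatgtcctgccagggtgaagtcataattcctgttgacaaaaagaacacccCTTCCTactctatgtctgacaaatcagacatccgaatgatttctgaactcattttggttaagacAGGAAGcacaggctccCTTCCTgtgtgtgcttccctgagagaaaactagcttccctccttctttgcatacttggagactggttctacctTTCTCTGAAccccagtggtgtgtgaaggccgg
Ikzf5, chr7:131410429-131410728, minus strand: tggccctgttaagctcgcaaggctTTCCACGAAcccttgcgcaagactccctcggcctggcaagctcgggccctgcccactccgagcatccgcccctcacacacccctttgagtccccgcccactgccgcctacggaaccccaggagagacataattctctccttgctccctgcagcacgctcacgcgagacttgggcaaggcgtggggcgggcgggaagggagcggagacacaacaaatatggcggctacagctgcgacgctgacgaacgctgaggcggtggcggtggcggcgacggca

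The 3 windows differed in base composition. The window of the first Ikzf1 start was 81.3% G and C with 52 CG pairs, and that of the second was 49.0% G and C with 2 CG pairs. The Ikzf5 window held 65.7% G and C with 27 CG pairs, and the median over all 32851 windows was 52.7% with 7 pairs. The first Ikzf1 start and the Ikzf5 start were thus rich in CG pairs, and the second Ikzf1 start was not. Letters of 6 motifs were searched on both strands: TGGGAA for Ikaros factors, AGGAAG for ETS factors, TGTGGT for RUNX, AGGTGT for T-box factors, TGANTCA for AP-1 and TTCNNNGAA for STAT. The second Ikzf1 window held AGGAAG at 3 places, and 35.4% of all windows held it at least at 1. TTCNNNGAA, held by 8.30% of all windows, was found 1 time in the second Ikzf1 window and 1 time in the Ikzf5 window. Matches to different motifs did not overlap in these windows. None of the 6 was found in the window of the first Ikzf1 start, and TGGGAA, present in 25.6% of all windows, was in none of the 3. A match describes letters only and is no evidence of binding.

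Regions were spread unevenly over the 5 genes. Ikzf1 had 35, Ikzf2 31, Ikzf3 18, Ikzf4 5 and Ikzf5 1. The 3 longest genes of the family, those of Ikaros, Helios and Aiolos, held 84 of the 90. Of the 16775 protein-coding genes with any region, 167 had at least as many as Ikzf1, 252 at least as many as Ikzf2 and 929 at least as many as Ikzf3. Gene length did not order them in the same way, since Ikzf2 spans 156 kb, Ikzf1 88.0 kb, Ikzf3 81.4 kb, Ikzf4 38.8 kb and Ikzf5 21.9 kb. Per 10 kb of gene, Ikzf1 was touched by 2.96 regions, Ikzf3 by 1.97, Ikzf4 by 1.29, Ikzf2 by 1.22 and Ikzf5 by 0.457. Ikaros was the most densely covered member, with 15.6% of its length inside regions. The median over 8140 genes of 20 to 200 kb was 0.679 regions per 10 kb and 3.23% of length. Of those genes, 99.1% had fewer regions per 10 kb than Ikzf1, 94.2% fewer than Ikzf3 and 78.5% fewer than Ikzf2. Ikzf5 was below the middle by this number, with 33.4% of genes under it, and above it by length covered, 4.17%, with 62.2% of genes less covered.

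**Figure D1:**
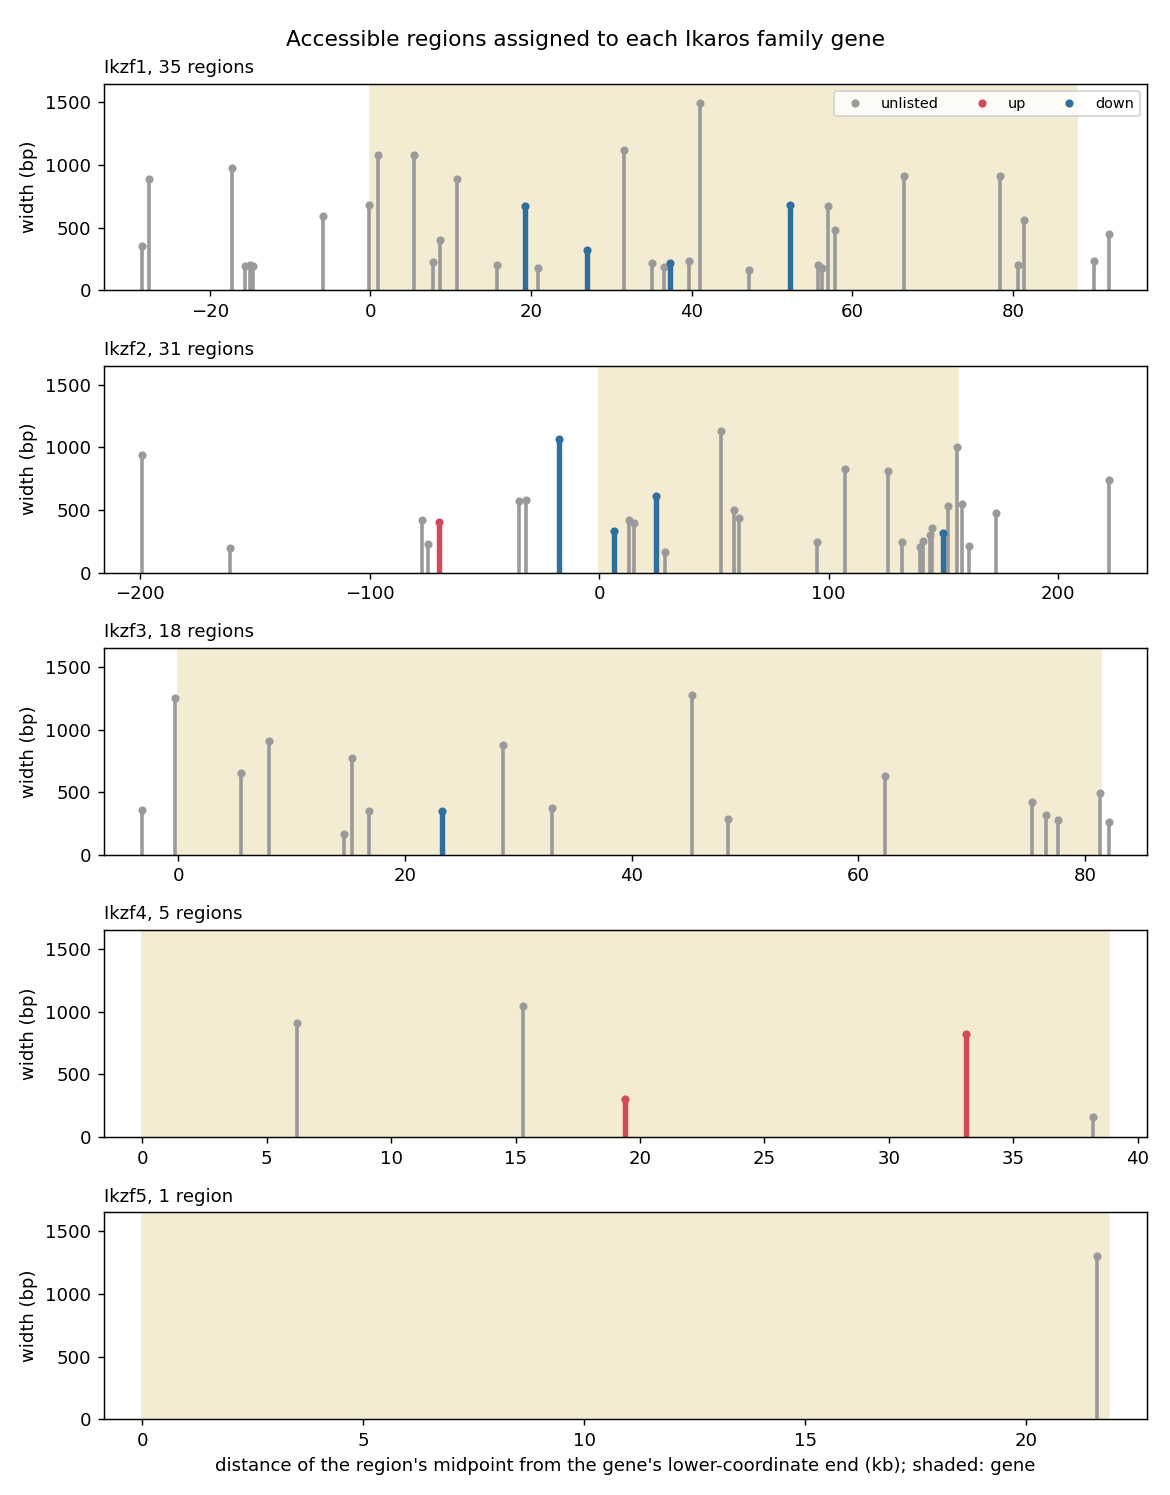
Position of the midpoint of each region relative to the gene's lower-coordinate end (x axis, kb) and its width (y axis, bp) for the 5 genes, with the gene's span shaded. Blue marks regions of the authors' down list, red those of the up list and grey the unlisted ones. The 4 down regions of Ikzf1 lie inside the gene, those of Ikzf2 lie inside it and below it, and Ikzf4 has 2 up regions.

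Of the 90 family regions, 9 were in the down list and 3 in the up list. The down share was 10.0%, beside 1.40% of all 91266 regions. The up share was 3.33%, beside 4.21% of all regions. Up regions made up 25.0% of the listed family regions, where they made up 75.1% of all listed regions. All 9 down regions belonged to Ikzf1, Ikzf2 and Ikzf3, and 2 of the 3 up regions belonged to Ikzf4. These are counts in the authors' lists. Neighbouring regions of 1 gene are not independent of each other, so no test was made of them.

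Ikzf1 (gene 22778, chr11:11684962-11772930, plus strand) had 4 of its 35 regions in the down list and 0 in the up list. On chromosome 11, where it lies, 0.711% of regions were down and 3.68% were up. The first of the 4 was chr11:11703777-11704449, 673 bp wide, with its midpoint 18.2 kb downstream of the first start. The second was chr11:11711749-11712069, 321 bp wide and 26.0 kb downstream. The third was chr11:11722172-11722386, 215 bp wide and 36.4 kb downstream, and the fourth was chr11:11736791-11737470, 680 bp wide and 51.2 kb downstream. All 4 were inside the gene and at least 18.8 kb from either end, in its middle part. They spanned 33.7 kb and did not form an unbroken run, because 7 unlisted regions lay between the first and the last. The gaps between successive down regions were 7.30, 10.1 and 14.4 kb. Among the unlisted regions between them was the widest of the whole family, chr11:11725176-11726672 of 1497 bp, at least as wide as 98.3% of all regions.

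The remaining 31 Ikzf1 regions were unlisted, including all near its starts. Region chr11:11684498-11685175, 678 bp wide, crossed the lower end of the gene, and the next, chr11:11685313-11686391 of 1079 bp, held the window of the first start. The window of the second start, 4.25 kb further on, lay in chr11:11689874-11690956, a region of 1083 bp. The first matched start, at 11685925, lies inside the gene, whose lower end is at 11684962. So the accessible regions at the lower end and at both matched starts were in neither list, and the listed ones were intragenic. Another 7 regions lay before the gene, up to 28.3 kb from it, and 2 lay beyond its other end, all unlisted. The non-coding gene Gm11999 overlaps the lower end of Ikzf1, so regions there cannot be tied to either by position alone.

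Ikzf2 (gene 22779, chr1:69531207-69687351) had 4 of its 31 regions down and 1 up, and was the only member with both. The up entry depends on the use of protein-coding genes only. With genes of any biotype, Ikzf2 had 25 regions, 4 down and 0 up. Chromosome 1 as a whole had 1.45% of its regions in the down list and 4.62% in the up list. The widest listed region of the family, chr1:69513108-69514174 of 1067 bp, was down and lay outside the gene, 17.0 kb below its lower-coordinate end. Its next neighbour among all regions, chr1:69537624-69537953 of 330 bp, was also down and lay 6.42 kb inside that end. The third down region, chr1:69555501-69556111 of 611 bp, was 24.3 kb inside it. These 3 down regions therefore sat around the lower end of Helios, with gaps of 23.4 and 17.5 kb. The fourth, chr1:69681054-69681365 of 312 bp, was at the other end of the gene, 5.99 kb from its upper-coordinate end and 125 kb from the third. The up region, chr1:69461174-69461574 of 401 bp, was 69.6 kb below the gene, and 51.5 kb with 2 unlisted regions separated it from the nearest down region. Helios lies in a gene-poor stretch, with the next protein-coding genes, Erbb4 and Spag16, 423 and 140 kb away. The non-coding genes Gm28497, 87.1 kb below, and Gm29822, 83.8 kb above, lie nearer. The regions of Ikzf2 extended over 422 kb, the farthest 199 kb from the gene. The region over its upper end, chr1:69686993-69687996 of 1004 bp, was unlisted, as was its widest, chr1:69583857-69584983 of 1127 bp inside the gene.

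Ikzf3 (gene 22780, chr11:98464610-98546031) had 1 of 18 regions down and 0 up. The down region, chr11:98487690-98488037, was 348 bp wide and lay 23.1 kb inside the lower-coordinate end of Aiolos. Its neighbours on either side were unlisted, at gaps of 6071 and 4870 bp. Both ends of the gene were accessible and unlisted, through chr11:98463685-98464937 of 1253 bp at the lower end and chr11:98545661-98546157 of 497 bp at the upper end. The unlisted region chr11:98546560-98546819 of 260 bp followed 529 bp beyond the upper end. The widest region of the gene, chr11:98509319-98510590 of 1272 bp, lay 35.4 kb from the nearer end and was unlisted too. Among 504 genes with 16 to 20 regions, 105 had at least 1 down region, so the count at Ikzf3 was no rarity.

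Ikzf4 (gene 22781, chr10:128630839-128669671) had 2 of its 5 regions in the up list and 0 in the down list. Chromosome 10 as a whole had 3.98% of its regions in the up list and 1.97% in the down list. Region chr10:128650054-128650356 was 303 bp wide and 19.2 kb inside the gene. Region chr10:128663536-128664354 was 819 bp wide and 5.32 kb from the upper-coordinate end. They followed each other directly among the accessible regions, 13.2 kb apart with 0 unlisted regions between them. Eos was the only member with more up than down regions. Of 3641 genes with 4 to 6 regions, 103 had 2 or more up. The 3 unlisted Ikzf4 regions measured 910, 1042 and 156 bp, and the widest was chr10:128645638-128646679. The last of these, chr10:128668934-128669089, was 582 bp from the upper end, and the gene Suox begins 216 bp beyond that end. The non-coding genes Gm26876 and Gm51824 overlap Ikzf4. With genes of any biotype, Ikzf4 had 4 regions, 2 of them up.

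Ikzf5 (gene 67143, chr7:131388649-131410518, minus strand) had 1 region, chr7:131409606-131410911 of 1306 bp, in neither list. It covered the start of Pegasus and reached into the neighbouring gene Acadsb, whose span begins 83 bp away, so both genes were equally near by the rule. It is counted for both. Of its bases, 913 lay in Ikzf5 and 311 in Acadsb, and its midpoint was 260 bp from the Ikzf5 end and 342 bp from the Acadsb end. It was at least as wide as 96.6% of all regions. The interior of the gene held 0 regions more than 1 kb from an end. The protein-coding gene Pstk also overlaps Ikzf5, but the rule did not give it this region.

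Listed family regions were compared by place with all regions. Within 1 kb of a gene end, 0 of 8 family regions were listed, where 1.32% of all such regions were up and 0.616% were down. With 8 regions, and shares this low over all regions, a 0 carries little information. Inside genes and over 1 kb from their ends, 8 of 60 family regions were down (13.3%, beside 1.63% of all such regions) and 2 were up (3.33%, beside 4.16%). More than 1 kb outside, 1 of 22 was down and 1 was up, each 4.55%, beside 1.46% down and 5.62% up over all such regions. The down entries of the family were therefore mostly intragenic. So were most of its regions, listed or not. Inside genes and over 1 kb from their ends lay 66.7% of them, against 46.4% over the series as a whole.

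**Figure D2:**
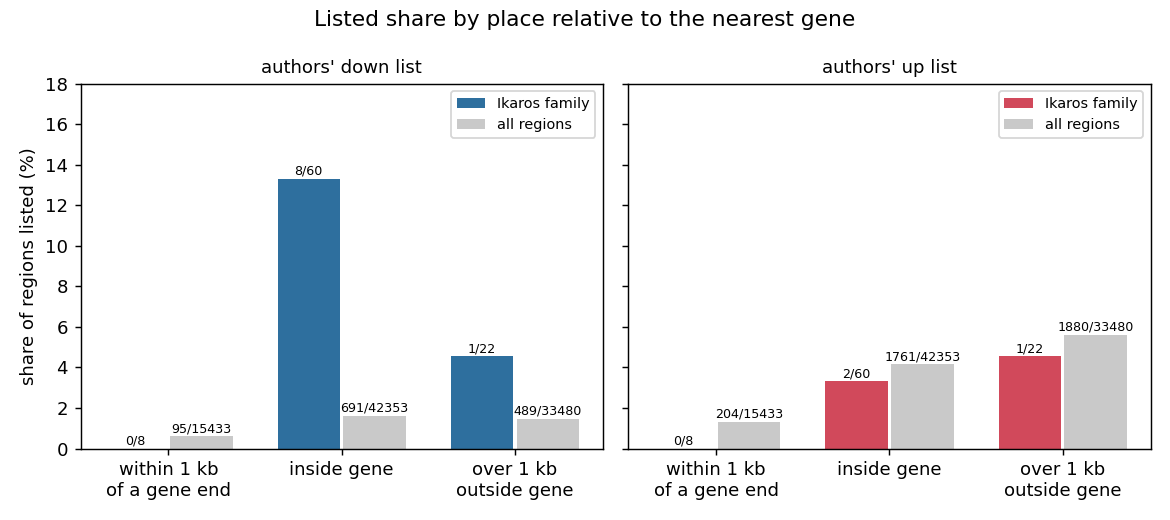
Share of regions in the authors' down list (left) and up list (right), in percent, for the Ikaros family (coloured bars) and all regions (grey bars) by place relative to the nearest gene, with listed and total numbers above each bar. The tallest bar is the down share of family regions inside genes, 8 of 60. The lists hold no values per sample, so there are no error bars.

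The widths of listed and unlisted family regions overlapped. The 12 listed ones ranged from 215 to 1067 bp with a median of 374 bp, and the 78 unlisted ones from 156 to 1497 bp with a median of 428 bp. The range of the listed ones thus lay within that of the others, which with 12 regions against 78 carries little information. The 9 down regions had a median of 348 bp, below the 537 bp of all down regions, and the 3 up regions had a median of 401 bp, beside 453 bp for all up regions. By the widths that bound the middle of all regions, the down entries numbered 1 of 25 family regions under 252 bp, 5 of 35 from 252 to under 653 bp and 3 of 30 from 653 bp upwards. The corresponding down shares were 4%, 14.3% and 10.0%, beside 0.366%, 1.69% and 1.83% of all regions of those widths. The down share of the family was higher than that of all regions in each width class, although the narrowest class rests on 1 region. Of the 12 family regions at least 974 bp wide, 1 was down, the region below Ikzf2. The widest region of each member was unlisted.

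**Figure D3:**
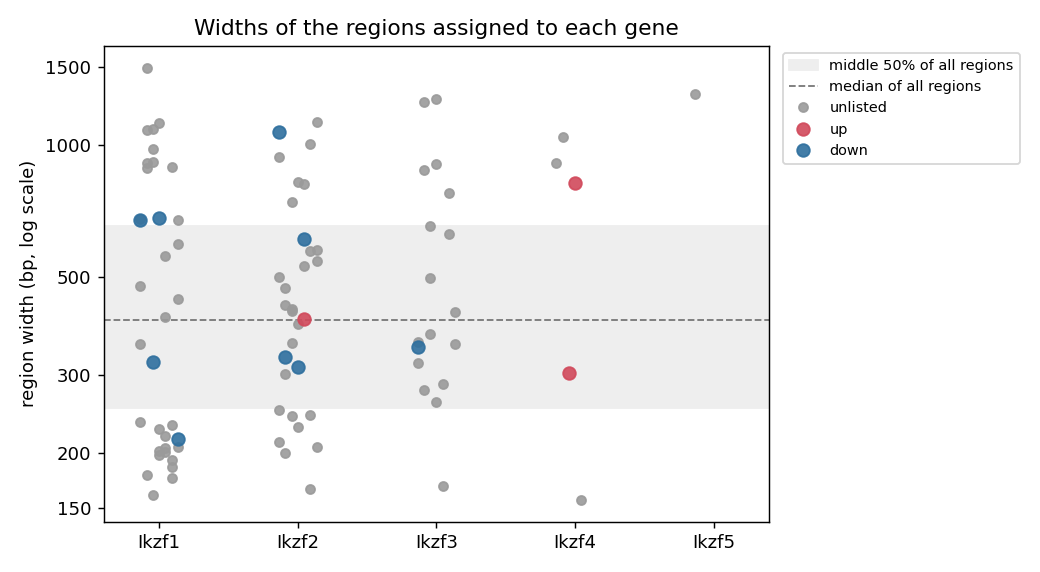
Width of each region (y axis, bp, log scale) by gene, with the listed ones in colour, the middle 50% of all 91266 regions as a grey band and their median as a dashed line. Listed regions of Ikzf1 lie between 215 and 680 bp, within the range of its unlisted regions.

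The number of listed regions was next set beside other genes with similar numbers of regions. Over all genes, 38 had 4 or more down regions, and Ikzf1 and Ikzf2 were among them. Of 276 genes with 30 or more regions, 20 had 4 or more down regions, 90 had more down than up, 127 had more up than down and 35 had none listed. Ikzf1 was 1 of 17 genes with exactly 4 down and 0 up regions. Closest to it in number of regions among these were Rasa3, a Ras GTPase-activating protein, with 35, Klf13, a Krüppel-like factor, with 32, and Nck2, a signalling adaptor, with 31. By nearest protein-coding gene, Ikzf2 was 1 of 6 genes with 4 down and 1 up region. Nearest to it in number were Ywhaz, a 14-3-3 protein, with 26 regions, Klf6, another Krüppel-like factor, with 49, and Gata6, a GATA factor, with 19. For Ikzf3 and Ikzf4, 520 and 413 other genes had the same counts in both lists. The first by number of regions and then by alphabet were Ccdc6, Cfap54 and Gm1966 for Ikzf3 and 2810004N23Rik, 4932438H23Rik and Adamts17 for Ikzf4. Likeness here means only equal list counts and a near number of regions, by gene, with no samples behind it.

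**Figure D4:**
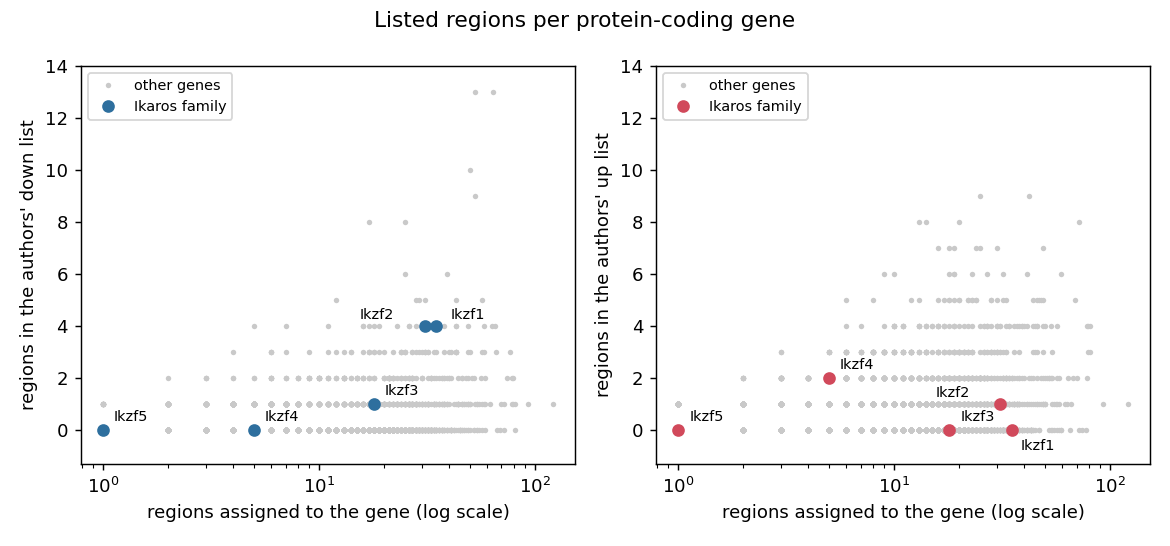
Number of regions in the authors' down list (left) and up list (right) against the number of regions assigned, on a log scale, with 1 point per protein-coding gene. Ikzf1 and Ikzf2 stand at 4 down regions, and Ikzf4 at 2 up regions with 5 in all.

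The surroundings of the 5 genes were described in the same way. Within 250 kb to either side, 184 regions were assigned to other genes alone, of which 13 were up and 1 was down, beside 4.21% up and 1.40% down over all regions, shares at which few down regions fall in so small a number. Around Ikzf1 these were 5 up and 1 down of 45, with 4 of the up regions nearest to Grb10, an adaptor gene. Around Ikzf2 3 of 14 were up, all nearest to Spag16, and around Ikzf4 2 of 61 were up. Around Ikzf3 0 of 54 were listed in either direction. Around Ikzf5 3 of 10 were up, nearest to Pstk, Acadsb and Hmx3. The 1 down region was chr11:11518150-11518386 of 237 bp, nearest to Spata48.

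Other genes that work with the family or respond to it came from fixed lists. Among 17 genes of NuRD and other corepressors, all 17 had regions, 0 of 131 regions were down and 4 were up (3.05%). The 4 were 2 at Ctbp2, a corepressor of the CtBP family, and 1 each at Mbd2, a methyl-CpG binding protein, and Sin3b, a histone deacetylase scaffold. The genes of the cereblon ubiquitin ligase, the complex through which thalidomide-like drugs degrade Ikaros and Aiolos in human cells, had 0 of 21 regions listed over 5 genes. Among 17 genes reported as bound or regulated by Ikaros factors, 14 had regions, and 11 of 201 regions were down (5.47%) and 8 up (3.98%). These included the interferon gamma gene Ifng with 2 down and 4 up of 41, Bcl6, a transcriptional repressor, with 4 down of 23, and Bcl2, a survival factor, with 3 down of 43. Il7r held the remaining 2 down regions, and Ebf1, with 3 of 18, and Il10, with 1 of 10, held the remaining up regions. These 3 genes were named after their values were seen. Among 13 other zinc finger factors of lymphoid cells, 8 of 279 regions were down (2.87%) and 13 up (4.66%), and the most listed regions of both kinds together were at Gata3 with 2 down and 4 up of 46, Bcl11a with 4 up of 36 and Prdm1 with 1 down and 3 up of 44. Zeb2, with 3 down of 58, and Klf2, with 2 down of 9, held the other down regions and were named after their values were seen. These shares are to be read beside 1.40% down and 4.21% up over all regions, and the differences between the lists were not tested.

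Markers of the labelled cell type were checked by whether a region lay in the gene or within 1 kb of it. This held for 9 of 9 NK cell markers. It also held for 7 of 9 T cell markers and 3 of 7 myeloid markers. Cd8a, Cd8b1, Lyz2, Adgre1, Mpo and Elane had none. The regions assigned to the NK cell markers were down in 10 of 117 cases (8.55%) and up in 1 (0.855%). A down share above the 1.40% of all regions was thus not particular to the Ikaros family. The most listed were at Ncr1, an activating receptor (4 down of 11), Gzma, a granzyme (3 down of 6), and Itga2, an integrin chain (1 down and 1 up of 19). Klrb1c, with 2 down of 17, held as many listed regions as Itga2 and was named after its values were seen. Of the 9 NK cell markers, 5 had no listed region. The regions of the T cell markers were down in 3 of 48 (6.25%), all at Cd28, a costimulatory receptor, and up in 1 (2.08%). Of 22 regions of the myeloid markers 0 were listed. Since the tables give no signal, a region does not tell how many cells were open there, and the part of other cell types in the counts above was not tested.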

How the data were processed

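ATAC-seq was performed on 4 cultures, and the 3 deposited tables describe the series as a whole. Per the submitters' processing notes, BWA, ArchR, MACS2 and HOMER 4.11.1 were used with build mm10, in roles the notes do not give. How regions were called (per sample or pooled), the differential test, its threshold and the reference dose are not given in the sources used here. The planned comparison of doses was not made, since 0 columns hold values per sample, and the depth per sample is unknown. Samples were grouped by the dose in their titles.

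Starts in the full list were 0-based and were raised by 1. Each listed region then matched 1 region of the full list exactly, and 0 were in both lists. Genes came from RefSeq, GRCm38.p6, the same build as mm10: 41.6% of promoter windows overlapped a region, against 4.77% and 4.81% after a move by 100 kb up or down. Exons and introns were not annotated. Regions still tied between genes after the end rule, 1154 in all, counted for each gene. Assignment and lookup recovered 200 of 200 and 300 of 300 known regions on simulated data. The members and lists were chosen with earlier results of these data known. Named were all members, their listed regions, their widest regions and those within 1 kb of an end, and 3 like genes per member with a listed region. Of each other list, the 3 genes with most listed regions were named, with ties by alphabet. Counts are descriptions and no test was run (Python 3.11.15, pandas 2.3.3). The counts over B cell and erythroid markers are not reported here.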

Additional observations from a re-analysis of the deposited data

How the results depend on the processing

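Of 58 alternative counts, 52 were within 1.5 times the reported one. The family count of 90 regions and its 9 down regions became 49 and 4 when only regions at least as wide as the median were kept, an alternative that removes regions by construction, and 2 of the 3 up regions stayed. Counting each region inside a gene or within 50 kb of it, whichever gene was nearest, gave 29 regions for Ikzf3, 12 for Ikzf4 and 4 for Ikzf5, with the family's listed counts at 3 up and 9 down. In that setting the up region 69.6 kb from Ikzf2 was no longer counted and 1 up region was counted for Ikzf5. Under 10 kb these were 2 up and 8 down, and with genes of any biotype 2 up and 9 down. Ikzf5 had 0 regions when tied ones were left out, an alternative chosen after seeing the data. The rules for ties could move only the region counts of Ikzf5 and of the family, since no other member had a tied region. Their unmoved counts therefore add little to the 52. The rules for overlap with the lists could not move a count, since listed regions match exactly. Assignment by transcription start was not run, and neither were motif searches in regions, for which no genome was used. No paired analysis was possible because the tables hold no values per sample, and for the same reason no replicate could be left out and no other normalization or threshold could be tried.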
